A study of Mus musculus with 6 samples.

Results

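The genes described here encode the main conjugating enzymes of the cell, the glutathione S-transferases (GST), the microsomal glutathione S-transferases (MGST), the UDP-glucuronosyltransferases and their relatives (UGT) and the cytosolic sulfotransferases (SULT). They were chosen by name from the deposited table, as every row whose symbol belongs to the Gsta, Gstk, Gstm, Gsto, Gstp, Gstt, Gstz, Mgst, Ugt or Sult series and that had a count in any library. Sult1e1 was left out beforehand, and 43 of the 22487 rows of the table remained, 20 GST, 3 MGST, 10 UGT and 10 SULT rows. All rows with a matching name had a count, the lowest of them Ugt2b (ENSRNOG00000046540) with 3, 0 and 4 counts in the PM2.5 libraries and none in the controls.

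RNA sequencing measured ovarian tissue of adult female rats, labelled wild type, from animals exposed to cowshed PM2.5, which is fine airborne particulate matter, and from controls without treatment, with 3 libraries in each group. The titles add 30 days, whose meaning is not explained. Dose, strain and stage of the cycle are not in the labels, nor is it said whether the 3 libraries of a group are separate animals, so the p-values reflect only how far these libraries spread. The organism field names the mouse, but all 22487 identifiers are rat Ensembl identifiers. Totals lay between 47662338 and 60749578 counts per library, and the ovarian markers were present, with the granulosa cell hormone Amh at 119, 223 and 407 FPKM in PM2.5 libraries 1 to 3 and 191, 309 and 55.0 FPKM in controls 1 to 3.

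Conjugation attaches a polar group to a reactive or fat-soluble molecule, so that it can be pumped out of the cell. GSTs add glutathione to electrophiles such as lipid aldehydes, UGTs add glucuronic acid from UDP-glucuronic acid, and SULTs add sulfate from the donor PAPS. In the ovary these enzymes meet steroid hormones, products of lipid peroxidation and foreign compounds such as the aromatic hydrocarbons that particles carry.

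A single member passed the test across all genes. Gsta6, an alpha-class GST gene, rose in the PM2.5 libraries, and no member fell. Of the other tested members Sult1a1, Sult1b1, Sult1d1, Gstk1, Gstm2, Gstm5, Gstm7, Gstz1 and Mgst3 were higher in each PM2.5 library than in any control without passing. Mgst1, Mgst2, Gstp1 and the theta-class genes had overlapping groups. Of the 43 members 26 had the mean of at least 0.5 FPKM (fragments scaled to transcript length and library size, the authors' value) that was needed for the test, 18 GST, 3 MGST, 1 UGT and 4 SULT genes.

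The test was edgeR's quasi-likelihood test on counts, PM2.5 over control, with Benjamini-Hochberg adjustment over 15303 genes. It called 1 of the 26 tested members, where 0.928% of all tested genes were called. At an unadjusted p below 0.05, 8 of the 26 passed, all higher in PM2.5, where 20.9% of all tested genes passed in either direction and 9.17% passed as higher. The groups did not overlap in 10 of the 26, all higher in PM2.5, where 27.2% of all tested genes were apart in either direction and 12.1% were apart and higher. Positive log2 fold changes were found for 19 of the 26 and negative ones for 7, with a median of 0.37, and 50.4% of all tested genes were positive with a median of 0.00. Sult1b1 and Sult1d1 were the 2 tested members with a control mean below the 0.5 FPKM limit. They entered the test through their PM2.5 values, so the counts and medians over tested members describe these 26 and lean toward higher values.

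**Figure D1:**
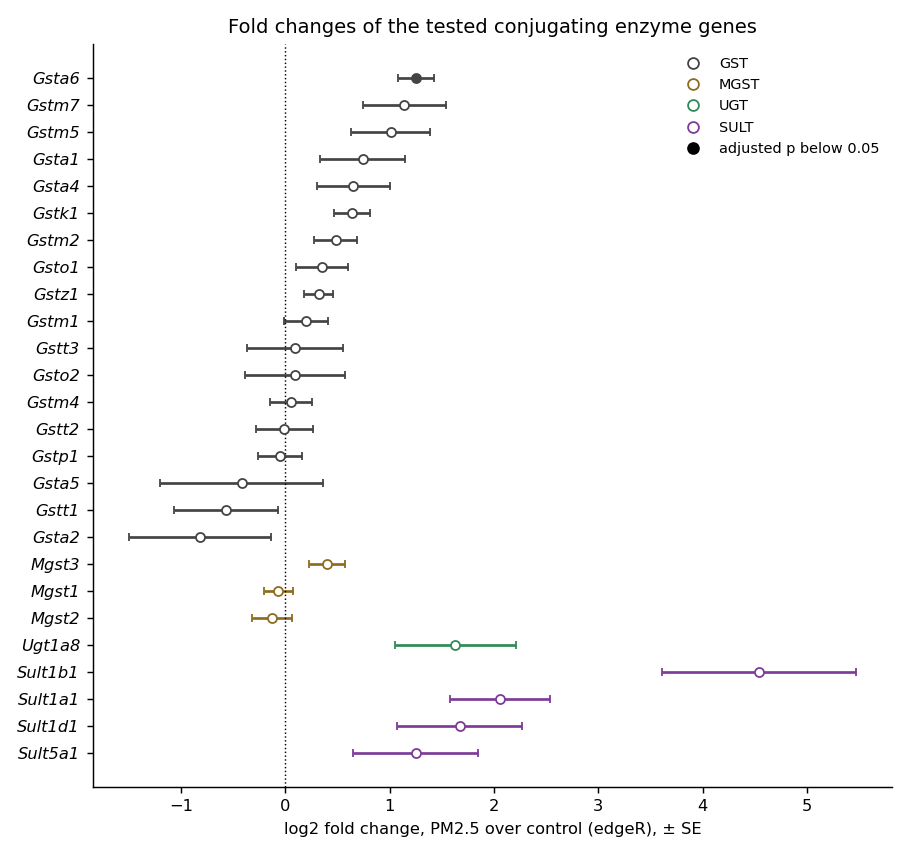
The log2 fold change of each tested member (horizontal axis, PM2.5 over control, edgeR) is drawn with its standard error and grouped by family, with a filled point for an adjusted p below 0.05. Gsta6 at 1.25 carries the filled point, the 4 SULT genes lie between 1.25 and 4.54, and Gstt2, Gstp1 and Mgst1 lie within 0.1 of 0.

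The alpha-class GSTs reduce lipid hydroperoxides and conjugate lipid aldehydes, and several of them are abundant in steroid-forming tissue. Gsta6 (ENSRNOG00000033402) lies on chromosome 9 from 23744288 to 23801131 on the minus strand, as the authors' table places it. The sources used here name no genome build. It had 50.8, 55.4 and 63.8 FPKM in PM2.5 libraries 1 to 3, against 28, 23.5 and 19.8 FPKM in controls 1 to 3. The lowest PM2.5 library was well above the highest control. The log2 fold change was 1.25 ± 0.17 (SE), a 2.38-fold higher level, with an edgeR adjusted p of 0.0434. The call was lost when any library was left out (adjusted p from 0.0706 without control 2 to 0.230 without PM2.5 library 2, with log2 fold changes between 1.16 and 1.39) and without the filter on low values (adjusted p = 0.0520). Of 5 red cell markers tested, Hba-a1, Hbb and Alas2 rose, while Hba-a3 and Ahsp had overlapping groups. Hba-a1 had 514, 726 and 811 FPKM in PM2.5 libraries, against 193, 146 and 136 FPKM in controls. Its groups were apart as in Gsta6, with PM2.5 library 3 highest and control 3 lowest. Hbb and Alas2 were apart too, but their library order differed from that of Gsta6. Hbb had 229.6, 383 and 359.9 FPKM in PM2.5 libraries, against 22.4, 52.5 and 49.5 FPKM in controls. Alas2 had 6.45, 8.19 and 8.76 FPKM, against 0.716, 1.94 and 1.31 FPKM. The part of blood in the Gsta6 value was not tested.

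Gsta1, the alpha-class gene next to Gsta6, had the highest mean level of all 43 members. Its levels were 748, 393 and 383 FPKM in PM2.5 libraries 1 to 3, against 317, 440 and 161 FPKM in controls 1 to 3. The groups overlapped, because control 2 lay above PM2.5 libraries 2 and 3, and the log2 fold change of 0.74 ± 0.41 did not pass (edgeR adjusted p = 0.340). Without PM2.5 library 1 the value was 0.36.

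Gsta3, also in the chromosome 9 cluster, was close to absent and was outside the main test. Without the filter on low values it did not pass (log2 fold change 4.37 ± 1.73, edgeR adjusted p = 0.282). Gsta3 had 104, 104 and 3 counts in PM2.5 libraries 1 to 3, against 0, 9 and 0 counts in controls 1 to 3, and at most 0.961 FPKM in a library. PM2.5 libraries 1 and 2 held nearly all of its counts, and PM2.5 library 3 lay within the range of the controls.

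The chromosome 8 alpha-class genes had fold changes of either sign that depended on single libraries. Gsta4, whose enzyme is known for conjugating the lipid peroxidation product 4-hydroxynonenal, had 71.0, 113 and 159 FPKM in PM2.5 libraries, against 90.9, 83.1 and 45.5 FPKM in controls (log2 fold change 0.65 ± 0.35). Gsta2 had 4.74, 18.5 and 19.5 FPKM in PM2.5 libraries, against 31.9, 37.0 and 7.27 FPKM in controls (log2 fold change -0.82 ± 0.68). The log2 fold change of Gsta5 was -0.42 ± 0.78, with levels of 0.758 to 7.27 FPKM in PM2.5 libraries and 3.41 to 6.73 FPKM in controls. The groups overlapped in each of these genes, and none passed (edgeR adjusted p from 0.336 to 0.791). Without PM2.5 library 3 the log2 fold change of Gsta4 was 0.34 and that of Gsta5 -1.64, and without PM2.5 library 1 Gsta5 was at 0.05 and Gsta2 at -0.40.

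The mu-class genes, which encode cytosolic GSTs acting on epoxides and other electrophiles, all had positive fold changes where tested. Gstm7 had 99.6, 85.5 and 96.5 FPKM in PM2.5 libraries 1 to 3, against 48.9, 62.4 and 17.5 FPKM in controls 1 to 3. Gstm5 had 45.6, 48.0 and 70.1 FPKM in PM2.5 libraries, against 29.5, 39.4 and 12.8 FPKM in controls. In both genes control 3 was far below the other controls, and every PM2.5 library lay above every control. The log2 fold changes were 1.14 ± 0.40 for Gstm7 and 1.01 ± 0.38 for Gstm5, with edgeR adjusted p of 0.181 and 0.203. Without control 3 they were 0.78 and 0.69.

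Gstm2 had 125, 91.0 and 109 FPKM in PM2.5 libraries, against 89.0, 87.3 and 57.1 FPKM in controls, and PM2.5 library 2 was barely above control 1. Its log2 fold change was 0.48 ± 0.21 (edgeR adjusted p = 0.258). Gstm1 averaged 78.0 ± 21.0 FPKM in PM2.5 libraries and 67.5 ± 5.27 FPKM in controls (SD, n = 3 each), and Gstm4 averaged 15.4 ± 3.49 and 14.8 ± 0.954 FPKM. Their log2 fold changes of 0.20 ± 0.21 and 0.05 ± 0.20 turned negative, to -0.04 and -0.15, without PM2.5 library 1. Gstm3 had between 22 and 54 counts in PM2.5 libraries and between 1 and 36 in controls and was not tested.

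The theta-class GSTs, which act on small halogenated compounds, were among the most abundant members and did not separate the groups. Gstt3 had 394, 222 and 163 FPKM in PM2.5 libraries 1 to 3, against 219, 136 and 365 FPKM in controls 1 to 3. Gstt1 had 221, 136 and 81.4 FPKM in PM2.5 libraries, against 214, 105 and 319 FPKM in controls. Both genes were highest in PM2.5 library 1 and control 3, so the spread within a group was larger than the difference between groups. The log2 fold changes were 0.09 ± 0.46 for Gstt3, -0.57 ± 0.50 for Gstt1 and -0.01 ± 0.27 for Gstt2, and none passed (edgeR adjusted p from 0.546 to 0.990). Gstt3 turned to -0.34 without PM2.5 library 1 and to -0.21 without control 2, Gstt1 was at -0.11 without control 3, and Gstt2 lay between -0.30 and 0.16 when a library was left out and at 0.01 with median-of-ratios scaling.

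The remaining soluble GSTs are single genes or pairs. Gstk1, whose kappa-class enzyme sits in mitochondria and peroxisomes, had 24.8, 24.7 and 21.2 FPKM in PM2.5 libraries, against 16.6, 14.5 and 14.1 FPKM in controls. Its groups were tight and apart, with a log2 fold change of 0.64 ± 0.17 that did not pass (edgeR adjusted p = 0.127). Gstz1, the maleylacetoacetate isomerase of tyrosine breakdown, had 12.7, 14.3 and 14.1 FPKM in PM2.5 libraries, against 11.2, 11.5 and 10.1 FPKM in controls. It was higher in every PM2.5 library by a small margin (log2 fold change 0.32 ± 0.14, edgeR adjusted p = 0.258).

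Gstp1, the pi-class enzyme that also binds the stress kinase JNK, averaged 145 ± 33.2 FPKM in PM2.5 libraries and 149 ± 17.3 FPKM in controls (SD, n = 3 each), a log2 fold change of -0.05 ± 0.21. Gsto1 and Gsto2, omega-class enzymes that reduce dehydroascorbate, had log2 fold changes of 0.35 ± 0.25 and 0.09 ± 0.48. In all these genes the groups overlapped, and edgeR adjusted p lay between 0.462 and 0.941.

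The microsomal GSTs are membrane proteins, and MGST2 and MGST3 can also form leukotriene C4. Mgst1 had 125, 111 and 122 FPKM in PM2.5 libraries, against 126, 115 and 133 FPKM in controls. Mgst2 had 108, 117 and 97.5 FPKM in PM2.5 libraries, against 138, 91.4 and 120.1 FPKM in controls. Their fold changes were small and had small errors, -0.07 ± 0.14 for Mgst1 and -0.13 ± 0.19 for Mgst2 (log2, edgeR adjusted p = 0.801 and 0.735). Mgst3 had 22.3, 22.3 and 20.3 FPKM in PM2.5 libraries, against 16.7, 18.7 and 13.8 FPKM in controls. All 3 PM2.5 libraries lay above the controls, and the log2 fold change of 0.40 ± 0.17 did not pass (edgeR adjusted p = 0.257).

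**Figure D2:**
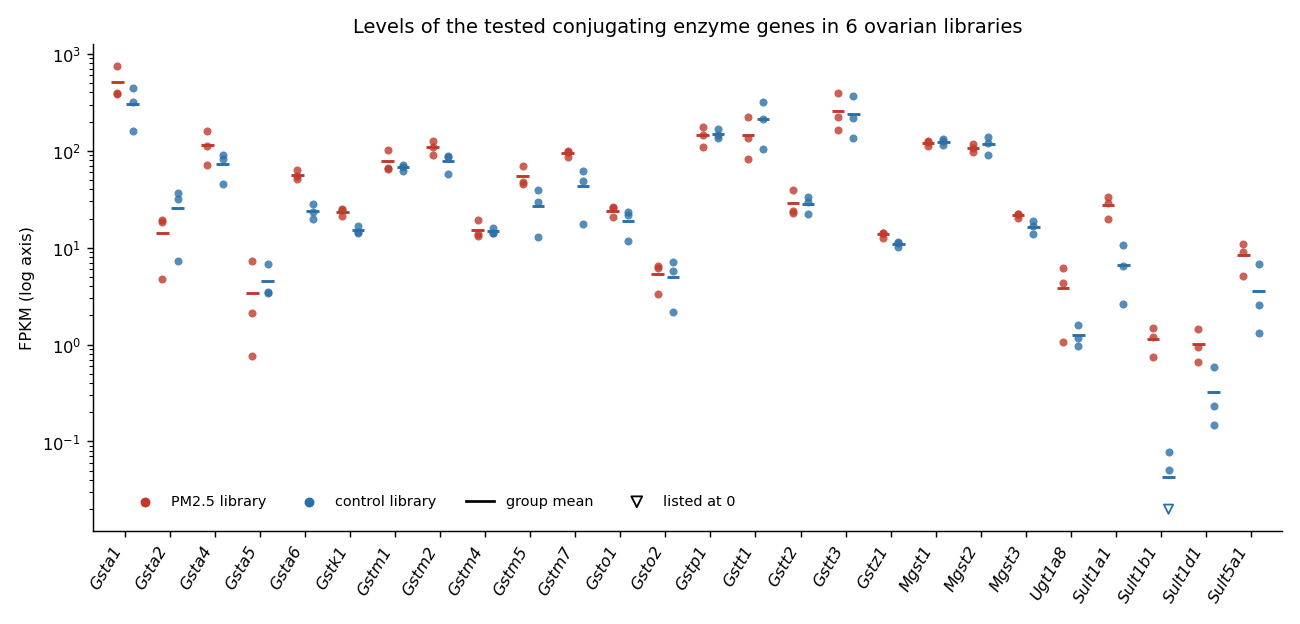
The FPKM of each tested member is shown on a log axis, with PM2.5 libraries as red points left of the control libraries in blue, a short line for the group mean and an open triangle where a library is listed at 0. Gsta6, Gstk1, Mgst3 and the Sult1 genes show red points above all blue points, and the red and blue points of the Gstt genes, Gstp1 and Mgst1 overlap.

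The 3 largest fold changes among tested members belonged to sulfotransferases, Sult1b1, Sult1a1 and Sult1d1, and none of them passed. Sult1b1 and Sult1d1 reached the limit for testing through their PM2.5 values, which favours a high place in this order. Sult1a1, the phenol sulfotransferase, had 29.1, 33.2 and 19.6 FPKM in PM2.5 libraries 1 to 3, against 6.54, 10.7 and 2.63 FPKM in controls 1 to 3. Its lowest PM2.5 library was above its highest control, with a log2 fold change of 2.06 ± 0.48 that did not pass (edgeR adjusted p = 0.0971). The gene body of Sult1a1, on chromosome 1 from 181272023 to 181275562, shares 2759 bases with Sgf29 on the other strand. The library kit marked strand, but whether counting used it is not stated in the sources used here. Sgf29 had 9.45, 11 and 11.4 FPKM in PM2.5 libraries, against 10.3, 11.7 and 7.53 FPKM in controls, a log2 fold change of 0.11 ± 0.18.

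Sult1b1, which sulfates thyroid hormones, was nearly silent in the controls. It had 111, 104 and 53 counts in PM2.5 libraries, against 4, 0 and 6 counts in controls. The groups were far apart, yet the level stayed low, at 1.14 ± 0.369 FPKM in PM2.5 libraries and 0.0432 ± 0.0399 FPKM in controls (SD, n = 3 each). The log2 fold change was 4.54 ± 0.93 and did not pass (edgeR adjusted p = 0.0774).

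Sult1d1, a catecholamine sulfotransferase of rodents, had 0.951, 1.45 and 0.654 FPKM in PM2.5 libraries, against 0.232, 0.586 and 0.149 FPKM in controls (log2 fold change 1.67 ± 0.60, edgeR adjusted p = 0.191). Its groups were close, since PM2.5 library 3 was just above control 2. Sult5a1 had 9.04, 10.8 and 5.08 FPKM in PM2.5 libraries, against 2.55, 6.75 and 1.33 FPKM in controls. Control 2 lay above PM2.5 library 3, and the log2 fold change of 1.25 ± 0.60 did not pass (edgeR adjusted p = 0.285).

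The 6 SULT genes without a test were rare. Sult4a1, known from brain, had 94, 156 and 8 counts in PM2.5 libraries, against 22, 45 and 0 counts in controls. Sult2b1, which sulfates cholesterol and pregnenolone, had 16, 21 and 5 counts in PM2.5 libraries, against 8, 0 and 0 counts in controls. Sult1c2a, Sult6b1 and Sult6b2 had at most 35 counts in a library, and the 16 counts of Sult1c3 all came from PM2.5 library 3. These rows were outside the main test, and none passed in the fit without the filter on low values (edgeR adjusted p from 0.419 to 0.822).

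The glucuronosyltransferases were the least abundant family, and 9 of their 10 rows were not tested. Ugt1a8 is a single row with 8 listed transcripts. Genes of the Ugt1a series are known to share a locus with alternative first exons and common last exons, so the row may hold several of them. It had 6.16, 4.37 and 1.06 FPKM in PM2.5 libraries 1 to 3, against 0.973, 1.58 and 1.18 FPKM in controls 1 to 3. PM2.5 libraries 1 and 2 stood above all others, and PM2.5 library 3 lay among the controls. The log2 fold change was 1.63 ± 0.58 (edgeR adjusted p = 0.187), and 1.12 without PM2.5 library 1.

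Ugt8, which makes the galactosylceramide of myelin, had 178, 265 and 21 counts in PM2.5 libraries, against 0, 41 and 12 counts in controls, again high in PM2.5 libraries 1 and 2. The Ugt2b genes, whose enzymes glucuronidate steroids and bile acids, had 7 rows within 497579 bases of chromosome 14. Ugt2b15 had 0, 0 and 4 counts in PM2.5 libraries and 0, 78 and 106 counts in controls, so nearly all of its counts came from controls 2 and 3. A row named Ugt2b (ENSRNOG00000069670) had 4, 18 and 10 counts in PM2.5 libraries and 0 in each control. The rows named Ugt2b10 reached 8 counts (PM2.5 library 2 and control 3) and 49 counts (control 1), and Ugt2b35 and Ugt2b7 had counts in a single PM2.5 library each, 22 in library 3 and 13 in library 1. Summed over the 7 rows there were 32, 41 and 65 counts in PM2.5 libraries, against 49, 100 and 149 counts in controls. The groups overlapped in this sum, with a log2 fold change of -1.21 ± 0.56 (edgeR adjusted p = 0.271). Ugt3a2, whose human enzyme uses other UDP-sugars, had 8 counts in control 3 and 0 elsewhere.

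Per length, GSTs made up 82.6 to 87.3% of the summed FPKM of all 43 members in a library, MGSTs 10.6 to 16.9%, SULTs 0.295 to 2.69% and UGTs 0.0809 to 0.320%. The summed FPKM of the 20 GST genes was 2095, 1487 and 1499.7 in PM2.5 libraries 1 to 3, against 1408, 1319 and 1303 in controls 1 to 3. All 3 PM2.5 libraries were above the controls, and PM2.5 library 1 stood apart from the rest. Gsta1 alone gave 35.7, 26.4 and 25.6% of that sum in PM2.5 libraries, against 22.5, 33.4 and 12.3% in controls. Control 3 had the smallest alpha-class sum, 237 FPKM, and the largest theta-class sum, 717 FPKM, so its total was close to those of the other controls with a different make-up. The SULT sum was 42.0, 48.2 and 26.9 FPKM in PM2.5 libraries, against 10.2, 18.7 and 4.66 FPKM in controls, and Sult1a1 gave most of it in every library.

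**Figure D3:**
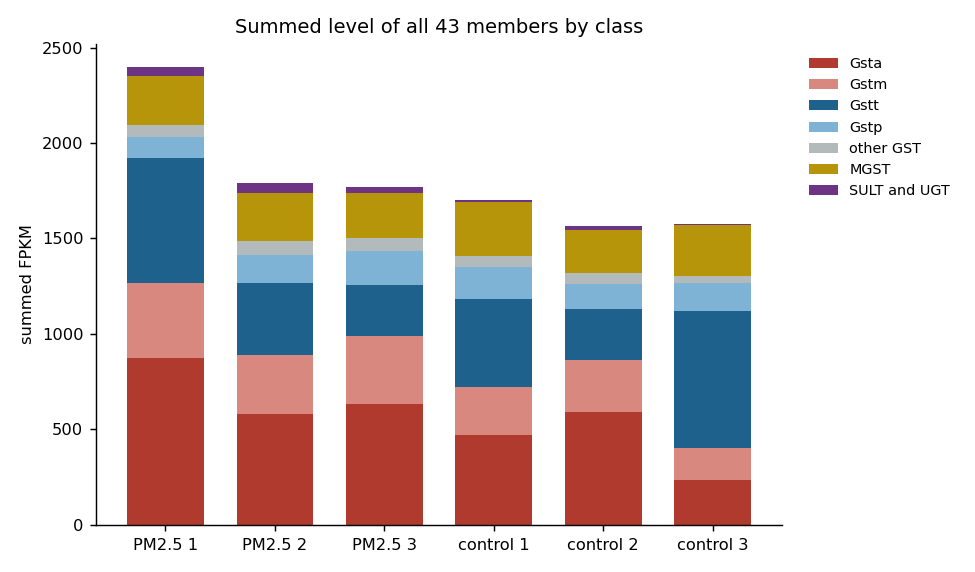
Stacked bars give the summed FPKM of all 43 members in each library by class, with PM2.5 libraries on the left and controls on the right. The alpha class is thinnest in control 3 (237 FPKM), where the theta class is thickest (717 FPKM), and the SULT and UGT band is thin in every library.

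The members lie in clusters of similar genes, and reads of near-identical copies can be split between them, so the values of single Gsta, Gstm, Gstt, Sult1 and Ugt2b genes are uncertain to that extent. When counts of similar copies within 1 Mb were summed before the fit, a step chosen after the data were seen, no member or cluster passed. The chromosome 9 alpha cluster, in which Gsta1 holds most counts, had 73466, 46868 and 37797 counts in PM2.5 libraries, against 28812, 40306 and 16077 counts in controls (log2 fold change 0.77 ± 0.39, edgeR adjusted p = 0.300). PM2.5 library 3 lay below control 2 in this sum, while Gsta6 alone was apart. The mu cluster had a log2 fold change of 0.48 ± 0.20 (edgeR adjusted p = 0.239), the theta cluster -0.06 ± 0.46, the chromosome 8 alpha cluster 0.37 ± 0.40 and the omega pair 0.33 ± 0.27. Sult1d1 and Sult1b1, which lie 16367 bases apart, had summed counts of 259, 365 and 149 in PM2.5 libraries, against 37, 86 and 29 in controls (log2 fold change 2.2 ± 0.54, edgeR adjusted p = 0.109). The gene body of Gstm2 spans 84.4 kb and holds Gstm7 and Gstm3 on the same strand, so the counts of these 3 genes are uncertain for that reason too. Of the 43 members 9 overlap another gene of the table, among them Gstz1 by 776 bases with Pomt2 and Ugt1a8 by 1073 bases with Dnajb3, both on the other strand.

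**Figure D4:**
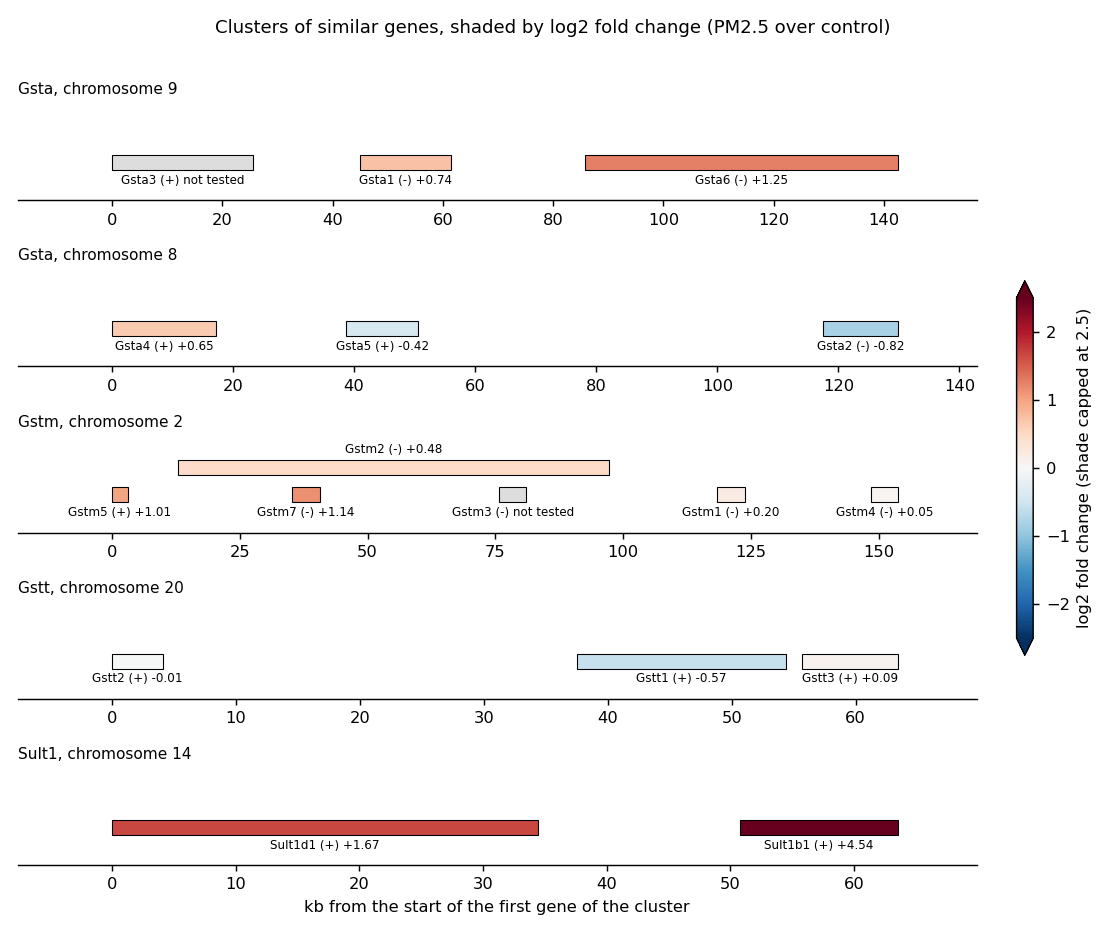
Gene bodies of the Gsta, Gstm, Gstt and Sult1 clusters are drawn to scale as kb from the start of the first gene, shaded by log2 fold change and labelled with strand and value, with grey for genes that were not tested. Gsta1 and Gsta6 share a positive sign, the chromosome 8 Gsta genes differ in sign (Gsta5 at 0.05 without PM2.5 library 1), and Gstm7 and Gstm3 lie inside Gstm2.

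Control 3 was the lowest control in 15 of the 26 tested members, or 57.7%, where it was lowest in 37.0% of all tested genes. This library also had the lowest granulosa marker sum, although Foxl2 and Cyp19a1 were lower in another library. That was not particular to granulosa markers. Control 3 also had the lowest sums of oocyte (20.4 FPKM), theca and interstitial (87.3), surface epithelium (17.1) and smooth muscle markers (187). The theca and interstitial sum was nearly as low in PM2.5 library 1 (88.5 FPKM). Cyp17a1 of that list was lower there (4.07 FPKM) than in control 3 (22.4 FPKM). The sum of endothelium markers in control 3 was the highest (162 FPKM). No marker of these lists passed the test. The 8 granulosa markers summed to 1379, 3508 and 4298 FPKM in PM2.5 libraries, against 2969, 2522 and 678 FPKM in controls. None of the 8 was at 0 or passed the test, and 7 were higher on average in PM2.5. Gstm7 and Gstm5 were lowest in control 3, and Gstm7 was at its highest in PM2.5 library 1, where the granulosa sum was below those of controls 1 and 2. Gsta6 had the library order of the granulosa sum in each group, rising from PM2.5 library 1 to 3 and falling from control 1 to 3. The granulosa sums of the groups overlapped, while the Gsta6 values were apart. Single markers such as Amh had another order in the controls. In whole tissue fewer cells of a type and less RNA per cell cannot be told apart, and the part of granulosa or other cells in these values was not tested.

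Gstt3 and Gstt1 were highest in the libraries with the most luteal and steroidogenic markers. The 8 markers of that list, with Star and Cyp11a1 of steroid synthesis among them, summed to 10497, 5213 and 3653 FPKM in PM2.5 libraries, against 4819, 4985 and 8659 FPKM in controls. PM2.5 library 1 and control 3 had the highest sums. None of the 8 markers was at 0 or passed the test, 3 were higher and 5 lower on average in PM2.5, and their part in the theta-class values was not tested.

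Sult1a1, Ugt1a8, Ugt8, Sult4a1 and Gsta3 were highest in PM2.5 libraries 1 and 2, as were the summed markers of surface epithelium, smooth muscle and fat, though not every marker of these lists. Of the 7 surface epithelium markers 6 had a row, and these summed to 171, 229 and 63.9 FPKM in PM2.5 libraries, against 30.6, 65.4 and 17.1 FPKM in controls, with all 6 higher on average in PM2.5. Krt18 had 60.5, 101 and 3.29 FPKM in PM2.5 libraries, against 5.18, 12.3 and 1.1 FPKM in controls. The 4 oviduct markers with a row summed to 147, 191 and 131 FPKM in PM2.5 libraries, against 137, 153 and 150 FPKM in controls, with 3 higher and 1 lower on average in PM2.5. Tubb4b, the lower one, gave most of this sum in every library, so the sum says little about the others. Ccdc153 had 11.9, 13.9 and 1.54 FPKM in PM2.5 libraries, against 3.22, 15.4 and 0.714 FPKM in controls. Sntn had 2.72, 4.79 and 0.192 FPKM, against 0.329, 3.96 and 0 FPKM. Pax8, with the largest fold change of that list, had 16.9, 30.3 and 9.22 FPKM in PM2.5 libraries, against 2.46, 5.39 and 0.404 FPKM in controls. The 6 smooth muscle markers summed to 835, 1559 and 336 FPKM in PM2.5 libraries, against 388, 464 and 187 FPKM in controls, with all 6 higher on average in PM2.5. The 6 fat cell markers summed to 27.3, 33.5 and 9.75 FPKM in PM2.5 libraries, against 4.84, 13.1 and 5.82 FPKM in controls. Of the 4 tested, 2 were higher and 2 lower on average in PM2.5. Adipoq, with the largest fold change of that list, had 20.1, 20.4 and 1.56 FPKM in PM2.5 libraries, against 1.17, 1.12 and 0.53 FPKM in controls. None of these markers passed the test or was at 0 in every library, and their part in the SULT and UGT values was not tested. Gsta6 was highest in PM2.5 library 3, where the summed levels of these 4 lists were lower than in the other PM2.5 libraries. Single markers such as Wt1 were not lower there. The order of the PM2.5 libraries does not bear on the difference between the groups, and the part of these cells in the Gsta6 value was not tested.

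The 10 hepatocyte markers summed to 26.5, 21.8 and 18.1 FPKM in PM2.5 libraries, against 18.5, 13.2 and 30.1 FPKM in controls. Of the 4 tested, 2 were higher and 2 lower on average in PM2.5, and none passed. Serpina1 had 23.6, 10.5 and 1.26 FPKM in PM2.5 libraries, against 1.07, 0 and 0 FPKM in controls, and Apoa1 had 2.55, 9.56 and 8.85 FPKM, against 16, 9.55 and 29.0 FPKM. Albumin, Alb, had 0.126, 0.610 and 4.71 FPKM in PM2.5 libraries, against 0, 1.87 and 0 FPKM in controls, and the liver cytochromes Cyp2c11 and Cyp3a2 stayed at or below 0.311 FPKM. Of the 5 T and NK cell markers tested, 1 was higher and 4 lower on average in PM2.5. Among them Gzmb passed as lower in PM2.5 (log2 fold change -4.14 ± 0.66, edgeR adjusted p = 0.0486). The part of hepatocytes or of T and NK cells in the members' values was not tested.

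**Figure D5:**
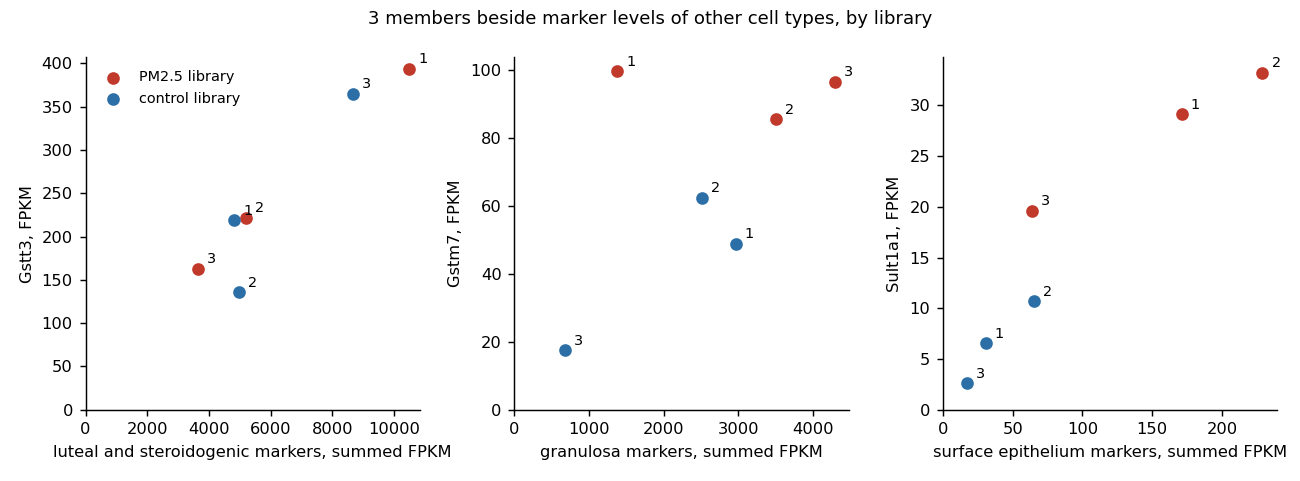
Each panel plots a member's FPKM (vertical) against the summed FPKM of a marker list (horizontal) in the 6 libraries, red for PM2.5 and blue for control, numbered by replicate. Gstt3 is high where luteal markers are high, in PM2.5 library 1 and control 3. Gstm7 is lowest in control 3 with the lowest granulosa marker sum. Sult1a1 is highest in PM2.5 libraries 1 and 2 with the most surface epithelium markers. PM2.5 library 3 and control 2 have similar sums of these markers (63.9 and 65.4 FPKM) with a different make-up. Wt1 is at 44.9 FPKM in PM2.5 library 3 and 24.1 FPKM in control 2, and Krt18 at 3.29 and 12.3 FPKM.

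Genes that supply, process and export conjugates were described from 10 lists. Of the 104 genes with a row 91 were tested, 1 fell and none rose, where 0.738% of all tested genes were called lower and 0.190% higher. Abcc5, an exporter of conjugates and cyclic nucleotides, fell, with 8.33, 9.14 and 8.20 FPKM in PM2.5 libraries, against 19.2, 18.3 and 24.0 FPKM in controls (log2 fold change -1.27 ± 0.17, edgeR adjusted p = 0.0434). The PM2.5 libraries lay close together and below every control. The call was lost when any library was left out. The other 7 tested exporters did not pass, and the export list had 5 positive and 3 negative fold changes with a median of 0.17, where all tested genes had a median of 0.00.

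Glutathione supply had 5 positive and 6 negative fold changes (median -0.10). Chac1, which breaks glutathione down, had 0.790, 1.34 and 0.676 FPKM in PM2.5 libraries, against 12.7, 4.85 and 5.35 FPKM in controls (log2 fold change -3.03 ± 0.52, edgeR adjusted p = 0.0557). The mercapturate steps, which trim glutathione conjugates, had a median of -0.35, with 4 positive and 5 negative. Ggt1, the enzyme that removes the glutamyl group, had 12.2, 7.63 and 3.74 FPKM in PM2.5 libraries, against 35.1, 16.1 and 58.1 FPKM in controls (log2 fold change -2.24 ± 0.59, edgeR adjusted p = 0.119). The groups of both genes were apart, with the PM2.5 libraries lower, and neither passed.

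The donor lists for the UGTs and SULTs did not pass in any member. UDP-glucuronic acid supply had 2 positive and 4 negative fold changes (median -0.08), and Slc35d1, a transporter of the sugar into the endoplasmic reticulum, was at -0.58 ± 0.27. PAPS supply had 3 positive and 4 negative with a median of -0.03, and the sulfate transporter Slc26a2 had 0.708 ± 0.282 FPKM in PM2.5 libraries and 2.68 ± 0.983 FPKM in controls (SD, n = 3 each, log2 fold change -1.93 ± 0.45, edgeR adjusted p = 0.0998). Enzymes that undo conjugation had 5 positive and 2 negative with a median of 0.36, and Arsb, a lysosomal sulfatase, was at 1.26 ± 0.30 (edgeR adjusted p = 0.105).

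The regulators had 5 positive and 7 negative fold changes (median -0.09). Ahr, the aryl hydrocarbon receptor, was at -1.15 ± 0.33 (edgeR adjusted p = 0.138), and Nfe2l2, which encodes NRF2 and drives many GST genes, was at 0.20 ± 0.25. Other conjugating enzymes had 4 positive and 2 negative with a median of 0.21, led by Inmt at 0.85 ± 1.39. Phase I and reducing enzymes had 8 positive and 6 negative with a median of 0.01, led by Akr1b8 at -1.70 ± 0.76. Relatives outside the name rule had 7 positive and 4 negative with a median of 0.30, led by Hpgds, a sigma-class GST that makes prostaglandin D2, at 2.48 ± 0.82 (edgeR adjusted p = 0.166).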

How the data were processed

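RNA of ovarian tissue was selected for poly(A), marked for strand with dUTP and sequenced from both ends, per the labels' protocols. Tools named without roles, per the submitters' processing notes, are StringTie 2.1.6, HISAT2 2.2.1, cutadapt 1.9, edgeR and DESeq2. No source used here names a genome build or annotation. The deposited table gives whole counts per gene and FPKM, fragments scaled by the authors to transcript length and library size, per the file headers.

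Counts were tested with edgeR 4.0.16 in R 4.3.3 (TMM factors, glmQLFit, glmQLFTest) over genes averaging 0.5 FPKM or more, two-sided, with Benjamini-Hochberg adjustment at 0.05. The SE is the size of the log2 fold change divided by the square root of F. FPKM values are printed as levels. Alternatives used DESeq2 1.42.0 and limma 3.58.1, and the code was tested on simulated data. Libraries of a group differed with a chi-square per degree of freedom of 136 or more, so none repeats another.

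Values in every library are given for members that passed, whose groups do not overlap in CPM, or that are the 3 most abundant tested genes of a family, and for Gsta6 and Gsta3. List genes are named where they passed or had the largest change in their list, though not every marker list is covered. Nfe2l2 was picked outside this rule after its values were seen. So were the cell type markers Amh, Star, Cyp11a1, Foxl2, Cyp19a1, Wt1, Tubb4b, Ccdc153, Sntn, Alb, Apoa1, Cyp2c11, Cyp3a2, Hba-a3 and Ahsp. Members and lists were chosen with earlier results of these data known. Similar copies had been planned by protein identity, but rat proteins were not used here, so position was used. No sequences are printed.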

Additional observations from a re-analysis of the deposited data

How the results depend on the processing

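Of 142 genes changed in all, 1 member and 1 gene of the pathway lists, counts stayed within 1.5 times with other scalings, a mean of 1 FPKM, robust estimation and limma at a pseudocount of 1. Without a filter they were 8, 0 and 0 (11 members at an unadjusted edgeR p below 0.05), and with DESeq2 1767, 6 and 14. All genes split into 29 higher and 113 lower, and 731 higher and 1036 lower with DESeq2. The 6 members were Gsta6, Sult1b1, Sult1a1, Gstk1, Ugt1a8 and Gstm7, where 11.6% of all genes passed. edgeR's own filter gave 87 genes in all, and limma at pseudocounts of 0.5 and 0.1 gave 2 list genes each. The cause of these shifts was not tested. Summed copies, an alternative chosen after seeing the data in place of the planned copies by protein identity, which were not run, gave 0 members (5 of 16 member or cluster rows at an unadjusted p below 0.05), since Gsta6 then shared a row with Gsta1. Same-numbered libraries correlated at -0.296, 0.133 and -0.0525 in their deviations. No pairing by number was seen, but so few correlations cannot exclude it. The replicate block gave 1 gene, 0 members and 0 list genes (Gsta6 edgeR adjusted p = 0.133). Leaving out a library gave 0 to 7 genes, 0 members and 0 list genes, where fewer samples entered, although 1898 to 3493 genes and 5 to 9 members still had an unadjusted p below 0.05 in edgeR. Across 473 values for 26 members, 8 lost the call, all of them for Gsta6, and 5 gained one, all with DESeq2. A further 18 changed the sign of a value that did not pass. No called direction turned, which says little because Gsta6 alone was called in the main fit. The median of all genes moved by at most 0.02. Depth limits the rare UGT and SULT rows.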
